A study of Mus musculus with 6 samples.

Results

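The 9 genes described here encode proteins of the central nervous system myelin sheath and of mature oligodendrocytes: Mbp, Mobp, Mal, Cldn11, Cnp, Mag, Mog, Opalin and Ermn. They were chosen by name for their role in myelin, and all 9 were found among the 18160 genes of the deposited table and passed the filter that left 15151 genes for testing. The mice were of the C57BL/6J strain, and prefrontal cortex was taken on postnatal day 56 for RNA sequencing. There were 3 samples heterozygous for Cyfip2 (HET) and 3 wild-type samples (WT), and no further treatment or allele is named. The labels do not say how the mutant allele was made or that samples of a genotype came from separate mice, so p-values measure only the spread between these samples.

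Oligodendrocytes wrap axons in many turns of membrane, which speeds conduction and supports the axon. In compact myelin the cytoplasm is squeezed out between the layers, while cytoplasm stays in the innermost and outermost turns and in the loops beside the nodes. Prefrontal cortex is grey matter with comparatively few myelinated fibres, and the white matter beneath it holds far more, so myelin mRNA in a dissected piece also varies with how much white matter it contains. CYFIP2 is a subunit of the WAVE complex, which drives branched actin assembly. Although the genes were grouped as compact myelin genes, textbook knowledge places only Mbp, Mobp and Mal products, and the junction protein of Cldn11, in compact membrane; CNP, MAG, MOG, OPALIN and ERMN belong to other parts of the sheath or of the oligodendrocyte.

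Promoter sequences are shown as a description, since transcription factors known to drive myelin genes, SOX10 and MYRF, have short recognised cores. Of the 9 genes, 8 were highest in the same sample, WT sample 2, and a link of the cores to that height was not tested. RefSeq windows of 250 bases before the annotated start (build GRCm38.p6) were matched for 8 of the 9 genes, all but Mbp. Capitals mark ACAAAG and ACAATG, cores bound by SOX proteins, and CTGGCAC and CTGGTAC, forms of the MYRF core, on either strand. The windows of Mag and Cnp held both kinds, and that of Mobp held repeated SOX cores. Those of Mal and Cldn11 (the latter not printed) held neither. Both genes were higher in WT sample 2 than in the other WT samples, and Mal was slightly higher still in HET sample 1 (7415 against 7254 normalized counts). The lines give each window 5′ to 3′ on the gene's strand; for Cnp and Mobp the last 35 bases, which other transcripts include in an exon, are left out.
Mag (chr7:30914923-30915172, minus strand): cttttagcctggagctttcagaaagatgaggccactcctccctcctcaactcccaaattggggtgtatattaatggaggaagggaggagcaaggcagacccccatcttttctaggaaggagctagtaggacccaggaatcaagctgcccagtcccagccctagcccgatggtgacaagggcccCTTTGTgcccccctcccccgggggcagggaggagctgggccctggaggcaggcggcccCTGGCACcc
Cnp (chr11:100574689-100574903, plus strand): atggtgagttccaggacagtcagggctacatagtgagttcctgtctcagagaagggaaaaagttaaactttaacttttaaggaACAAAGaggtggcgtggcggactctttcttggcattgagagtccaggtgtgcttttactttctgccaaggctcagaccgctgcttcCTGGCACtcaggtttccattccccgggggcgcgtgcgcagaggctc
Mobp (chr9:120149492-120149706, plus strand): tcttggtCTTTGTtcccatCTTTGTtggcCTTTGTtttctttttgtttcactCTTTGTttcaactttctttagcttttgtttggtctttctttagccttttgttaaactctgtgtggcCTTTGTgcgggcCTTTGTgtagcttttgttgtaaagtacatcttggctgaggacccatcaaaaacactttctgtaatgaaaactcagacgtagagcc
Mal (chr2:127656696-127656945, minus strand): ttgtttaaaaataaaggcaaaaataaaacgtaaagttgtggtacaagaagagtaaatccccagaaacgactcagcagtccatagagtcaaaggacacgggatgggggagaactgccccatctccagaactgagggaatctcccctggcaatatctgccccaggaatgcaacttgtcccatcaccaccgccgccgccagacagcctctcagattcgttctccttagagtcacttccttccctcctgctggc

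A SOX core stood in 5 of the 8 windows (Cnp, Ermn, Mag, Mobp and Opalin), and 25.4% of all 27025 promoter windows of this length held one. A MYRF core stood in 3 of the 8 (Cnp, Mag and Mog), against 5.88% of all windows. The Mobp window held 6 copies of ACAAAG, all read as CTTTGT on the printed strand, and no other gene's window in the table held as many. In Mag the SOX core began 67 bases and the MYRF core 9 bases before the start site, and in Cnp the distances were 167 and 81 bases. None of the 8 windows held the E-box CAGCTG or TATAAA, which stood in 12.7% and 13.0% of all windows, and 1 (Cnp) held GGGCGG, against 33.0%. A match of letters is a description and not a binding site.

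The targeted gene was checked first. Cyfip2 had normalized counts of 28356, 28578 and 29567 in the HET samples and 45454, 43174 and 45627 in the WT samples, a log2 difference of -0.63 ± 0.05 (SE; adjusted p = 0.0027 by limma-trend), in the direction of the genotype labels. Normalized totals lay between 36.4 and 37.1 M (M for 1e+06) per sample, and the depth implied by the lowest values was 27.2 to 48.0 M reads, an estimate. The cortical excitatory neuron gene Slc17a7, a vesicular glutamate transporter, was read in every sample, at 47790 to 55120 normalized counts. In such bulk tissue, fewer oligodendrocytes and less myelin mRNA per cell cannot be told apart.

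None of the 9 myelin genes passed an adjusted p of 0.05, where 0.0132% of all tested genes (2 of 15151) did. All 9 point estimates were below WT, at 86.1% to 96.7% of the WT level, and all 9 of the 95% intervals included no difference. The median log2 difference of the 9 genes was -0.11, beside 0.0020 over all tested genes, of which 49.2% were below WT. No member reached an unadjusted p of 0.05, which 5.07% of all tested genes did. The HET and WT values overlapped for all 9 genes, whereas 10.5% of all tested genes did not overlap. The smallest unadjusted p was 0.085, for Mog, and the adjusted p of the 9 genes lay between 0.95 and 0.99 by limma-trend. These genes share the oligodendrocyte content of each sample and are not independent of each other.

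**Figure D1:**
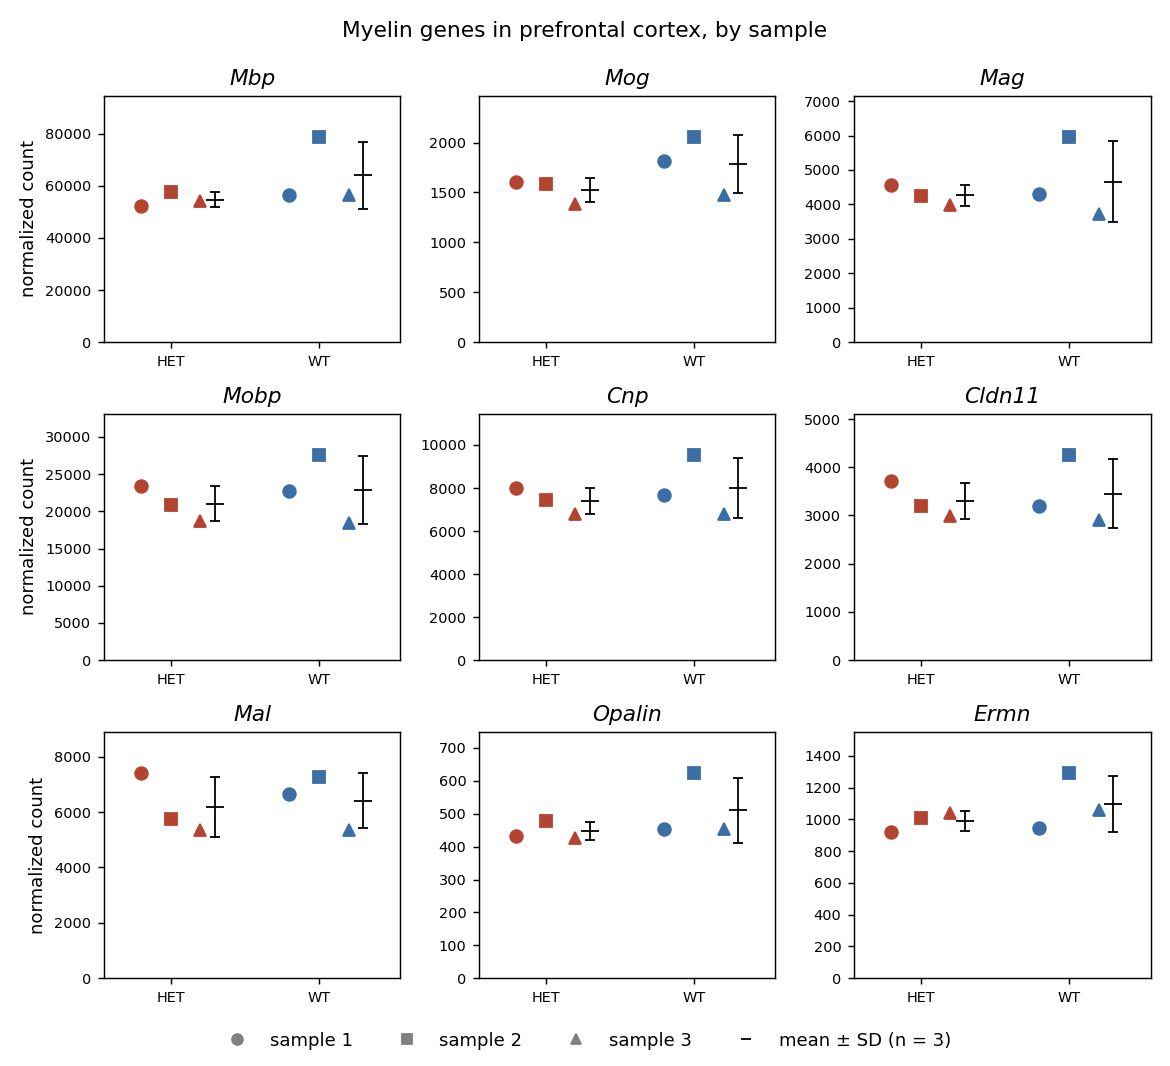
Normalized counts of the 9 genes (y axis, starting at 0) in each HET sample (red) and WT sample (blue), with the mean ± SD of 3 samples beside each group. WT sample 2 is the highest of the 6 samples in 8 panels, and in the Mal panel HET sample 1 is the highest.

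The genes of compact membrane were described first. Mbp, on chromosome 18 (82475146 to 82585637, GRCm38, plus strand), encodes myelin basic protein, which holds the cytoplasmic faces of the membrane together. Its normalized counts were 52142, 57726 and 54237 in HET samples 1, 2 and 3, against 56607, 78883 and 56542 in WT samples 1, 2 and 3. WT sample 2 alone lay far above the others, and the remaining WT samples fell inside the HET range. The means were 54702 ± 2821 in HET and 64011 ± 12880 in WT samples (SD, n = 3 each), a log2 difference of -0.21 ± 0.12 (SE) with a 95% interval of -0.47 to 0.05. The exact two-sided permutation p was 0.3, where 3 against 3 samples cannot go below 0.1.

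Mobp (chromosome 9, 120149707 to 120181484, plus strand) encodes a small basic protein of compact myelin. It was read at 23385, 20894 and 18674 normalized counts in HET samples and at 22665, 27597 and 18426 in WT samples. WT sample 2 was the highest and WT sample 3 the lowest of the 6, so the HET samples lay within the WT range. The log2 difference was -0.11 ± 0.13 (SE). Mal (chromosome 2, 127633226 to 127656695, minus strand) encodes a proteolipid that sorts proteins and lipids into membrane rafts. Its values were 7415, 5745 and 5365 in HET samples and 6642, 7254 and 5334 in WT samples. Mal was the only member with its highest value in a HET sample, and its log2 difference was -0.06 ± 0.13 (SE), with an interval of -0.35 to 0.24.

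Cldn11 (chromosome 3, 31149920 to 31164324, plus strand) encodes claudin-11, which forms the tight junctions between the membrane turns. It had 3725, 3205 and 2995 normalized counts in HET samples and 3195, 4259 and 2908 in WT samples. Its log2 difference was the smallest in size of the 9, at -0.05 ± 0.13 (SE), and its interval of -0.34 to 0.24 allows HET levels of 79.0% to 118% of WT.

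The genes of the cytoplasm-holding and surface membranes followed. Cnp (chromosome 11, 100574904 to 100591729, plus strand) encodes a phosphodiesterase that keeps cytoplasmic channels open in the sheath. Its values were 7997, 7451 and 6798 in HET samples and 7678, 9546 and 6771 in WT samples, with a log2 difference of -0.10 ± 0.11 (SE). Mag (chromosome 7, 30899176 to 30914873, minus strand) encodes an adhesion protein of the membrane that faces the axon. It had 4573, 4244 and 3970 normalized counts in HET samples and 4300, 5967 and 3720 in WT samples. In Mag, WT sample 2 stood 0.58 above the mean of the other WT samples on the log2 scale, the widest such gap among the 9 genes, and the log2 genotype difference was -0.10 ± 0.14 (SE).

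Mog (chromosome 17, 37010743 to 37023398, minus strand) encodes an immunoglobulin-type protein on the outer surface of the sheath. It was read at 1606, 1585 and 1381 in HET samples and at 1812, 2059 and 1479 in WT samples. The log2 difference of -0.22 ± 0.11 (SE) was the largest in size of the 9, with a 95% interval of -0.47 to 0.04, and WT sample 3 lay below HET samples 1 and 2.

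Opalin (chromosome 19, 41061710 to 41077113, minus strand) encodes a transmembrane glycoprotein of mature oligodendrocytes, and Ermn (chromosome 2, 58045113 to 58052864, minus strand) encodes ermin, an actin-associated protein that appears late in their maturation. Opalin had 433, 478 and 428 normalized counts in HET samples and 453, 624 and 452 in WT samples. Ermn had 922, 1009 and 1038 in HET samples and 948, 1294 and 1057 in WT samples. In both genes WT sample 2 was apart and the remaining samples lay close together. The log2 differences were -0.18 ± 0.13 and -0.14 ± 0.11 (SE).

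Levels were compared between genes only per length, and only for the 4 genes with a single annotated coding transcript, because the transcripts of the other 5 differ in length. Per kilobase of transcript, Cnp stood highest, at 3146 ± 255 normalized counts in HET and 3394 ± 600 in WT samples (SD, n = 3 each). Cldn11 followed at 1769 ± 201 in HET and 1847 ± 381 in WT samples. Ermn was at 272 ± 16.6 in HET and 303 ± 48.7 in WT samples, and Opalin was at 243 ± 15.0 in HET and 277 ± 53.9 in WT samples. Ermn and Opalin overlapped between samples of a genotype, but within each of the 6 samples Ermn was above Opalin per kilobase. The steps from Cnp to Cldn11 and from Cldn11 to both exceeded the spread between samples.

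Together the 9 genes took 0.275%, 0.279% and 0.259% of the normalized total in the HET samples, and 0.282%, 0.378% and 0.261% in WT samples 1, 2 and 3. WT sample 2 was the highest of the 6 samples for 8 of the 9 genes, where 16.1% of all tested genes had their highest value there. It exceeded the mean of the other WT samples by 1.21-fold (Mal) to 1.49-fold (Mag). The SD was wider in WT than in HET samples for 8 of the 9 genes. Against genes of a like level (a mean within a factor of 2 of the member's), 0.302% (Mag) to 7.29% (Opalin) had a WT range as wide on the log2 scale. The HET range was matched by 0.638% of like genes for Mal, 4.14% for Mobp and 4.97% for Cldn11, but by 44.4% for Mbp, 44.6% for Ermn and 60.4% for Opalin.

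Without WT sample 2 the median log2 difference of the 9 genes was 0.03, with 5 genes above and 4 below WT, beside 50.1% of all tested genes below. Mbp was then at -0.05 ± 0.06 (SE), with an interval of -0.19 to 0.09, Mog was at -0.11 ± 0.10 and Cldn11 was at 0.11 ± 0.09. No member passed in that fit either, with a smallest adjusted p of 0.84 by limma-trend. Leaving out the other samples in turn moved the median between -0.25 (without WT sample 3) and -0.05 (without HET sample 3), so single samples of both genotypes set its size. Only Mbp, Mog, Opalin and Ermn stayed below WT whichever sample was left out.

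**Figure D2:**
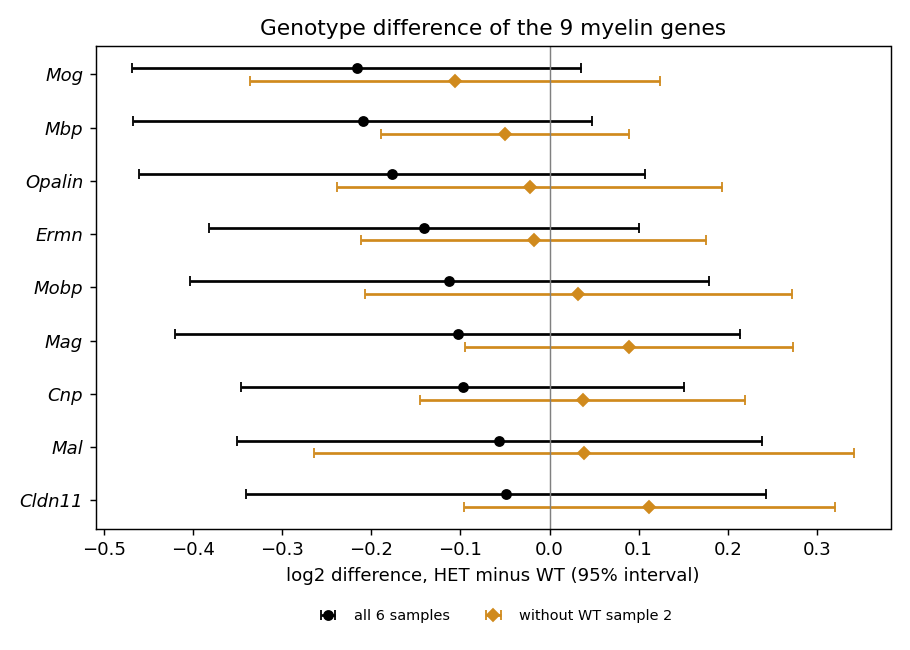
Log2 difference HET minus WT (x axis) of the 9 genes with 95% intervals from limma-trend, over all 6 samples (black circles) and without WT sample 2 (orange diamonds). All intervals cross 0, and 5 of the 9 estimates lie above 0 without that sample.

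Other genes of the oligodendrocyte were highest in WT sample 2 as well. Of 21 other tested myelin sheath genes, 16 had their highest value there, as did 8 of 10 myelin lipid enzymes, 7 of 10 oligodendrocyte transcription factors and 5 of 10 tested genes of precursors and newly formed oligodendrocytes. On the log2 scale, the mean deviation of WT sample 2 from the 6-sample mean was 0.35 for the 9 genes, 0.26 for other sheath genes, 0.21 for lipid enzymes, 0.14 for transcription factors and 0.19 for the precursor list. The excitatory neuron markers were at -0.04 there. Striatal markers were at 0.20 in WT sample 2, with 8 of 16 highest there, against -0.12 to 0.01 in the other 5 samples. Microglia markers were at 0.13 there, with 6 of 10 highest, and the next sample was at 0.03. Schwann cell genes (5 tested), endothelial markers and astrocyte markers were at 0.18, 0.09 and 0.07 there, and in these 3 lists a HET sample was higher, at 0.18, 0.13 and 0.13. The striatal receptor gene Drd2 was at 17.8, 20.1 and 33.8 normalized counts in HET samples and at 26.5, 48.3 and 20.6 in WT samples. In WT sample 2, log2 deviations followed GC content by 0.07 per 10 percentage points, against -0.04 to 0.02 in the others. With GC content and transcript length corrected, the median genotype difference of the 9 genes was -0.12. The height of WT sample 2 itself was not measured after that correction. Cortical layer markers lay to one side by genotype, though the gene lists were chosen with earlier results of these data known. Of upper-layer markers 10 of 10 were below WT (median log2 difference -0.18), and of deep-layer markers 11 of 11 were above (median 0.19). None passed the threshold by limma-trend, with 5 and 2 under an unadjusted 0.05, where 5.07% of all tested genes were. Without WT sample 2, 10 of 10 upper-layer markers were below WT and 9 of 11 deep-layer markers were above. On the same scale of deviations, WT sample 3 stood highest for upper-layer markers (0.25) and lowest for deep-layer ones (-0.26). WT sample 2 was at -0.04 and 0.08, near the HET samples at -0.18 to -0.05 and 0.07 to 0.10. Leaving out WT sample 2 thus removed the WT sample nearest to them. Counts without WT sample 3 are not given, so a shift of that sample and a genotype pattern were not told apart. The part of other cell types and of neighbouring tissue in the result was not tested.

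**Figure D3:**
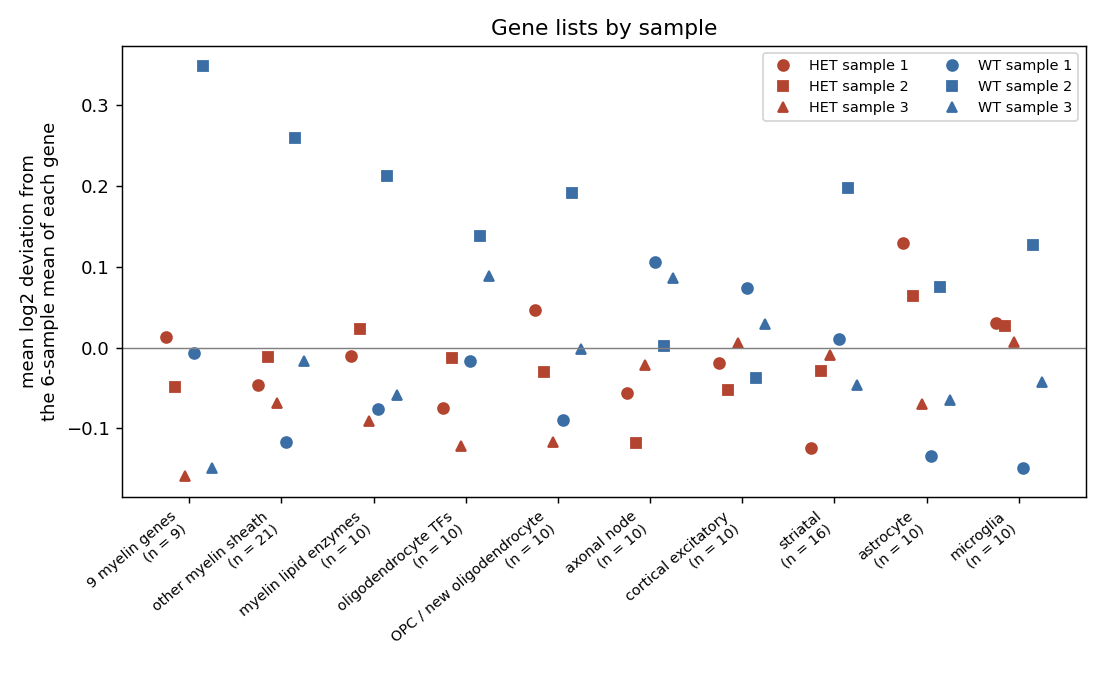
Mean log2 deviation from each gene's 6-sample mean (y axis) for 10 gene lists, by sample, HET in red left of WT in blue. WT sample 2 (blue square) is at 0.35 for the 9 myelin genes and at -0.04 for cortical excitatory neuron markers.

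The genotype comparison was repeated for the myelin and oligodendrocyte lists, and the 2 genes of smallest p in each are named. Among all tested genes, 5.07% had an unadjusted p under 0.05 by limma-trend and 10.5% did not overlap between genotypes. Values did not overlap in 1 of 21 other sheath genes (Cntn2) and 1 of 10 lipid enzymes (Enpp2). The same held for 2 of 10 transcription factors and 0 of 10 precursor genes. Of the 21 other myelin sheath genes 19 were below WT, with a median of -0.08, and none passed the threshold by limma-trend (1 had an unadjusted p under 0.05). Cntn2, an adhesion protein of the juxtaparanode, had the smallest p of the list, at 5272, 5356 and 5088 normalized counts in HET samples and 5443, 6259 and 5826 in WT samples (log2 difference -0.16 ± 0.06, SE). Gjc3, a glial connexin gene, was at -0.20 ± 0.10. Among lipid enzymes 7 of 10 were below WT, none past the threshold (1 under an unadjusted 0.05), with Enpp2 at -0.13 ± 0.06 and the glycolipid transfer gene Gltp at -0.16 ± 0.09. Among transcription factors 9 of 10 were below WT and none passed (2 under an unadjusted 0.05). Olig2, which specifies the lineage, was at 514, 533 and 525 in HET samples and at 553, 653 and 615 in WT samples, without overlap (log2 difference -0.21 ± 0.08). St18, a zinc finger factor, had the smallest p of this list and the largest difference, at 135, 135 and 122 in HET samples and 212, 139 and 288 in WT samples, without overlap. Its log2 difference was -0.64 ± 0.22 (SE; adjusted p = 0.91 by limma-trend), and -0.92 without WT sample 2, which was its lowest WT sample. In the precursor list 5 of 10 were below WT, none past the threshold (1 under an unadjusted 0.05). Gpr17 was at -0.26 ± 0.10 and Bcas1 at -0.32 ± 0.15. Without WT sample 2, 9 of the 21 sheath genes and 4 of 10 lipid enzymes were below WT, with medians of 0.03 and 0.07. In that fit 5 of 10 transcription factors and 4 of 10 precursor genes were below WT, with medians of -0.02 and 0.07.

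When the level of lipid enzymes and transcription factors in each sample was included as a covariate, the median log2 difference of the 9 genes was 0.05 and none passed (smallest adjusted p = 0.71 by limma-trend). Mbp was then at -0.02 ± 0.07 (SE), Mog was at -0.08 ± 0.11 and Cldn11 was at 0.14 ± 0.11. With 6 samples and 1 covariate this fit has few degrees of freedom. The lipid enzymes and transcription factors were themselves mostly below WT, at 7 of 10 and 9 of 10. The fit removes a difference that the 9 genes share with them, whatever its source, which was not tested.

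Besides WT sample 2, the 9 genes did not vary alike within a genotype, a pattern noticed after the values were seen and given as a description. Mal, Mobp, Cldn11, Cnp, Mog and Mag were higher in HET sample 1 than in HET sample 3, by 0.20 (Mag) to 0.47 (Mal) on the log2 scale. The same 6 genes were higher in WT sample 1 than in WT sample 3, by 0.14 (Cldn11) to 0.32 (Mal). Both differences exceeded 0.1 in 8.73% of all tested genes. Both were above 0, by any amount, in 7 of the 9 genes and in 3994 of all 15151 tested genes. The same held for 5 of 5 blood markers, 7 of 21 other myelin sheath genes and 4 of 10 lipid enzymes. Mbp and Opalin were close to level in both pairs, at -0.06 and 0.02 between the HET samples and 0.0016 and 0.0019 between the WT samples. Ermn ran the other way, at -0.17 and -0.16. Of the members of compact membrane, Mobp, Mal and Cldn11 differed between these single samples and Mbp was close to level.

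**Figure D4:**
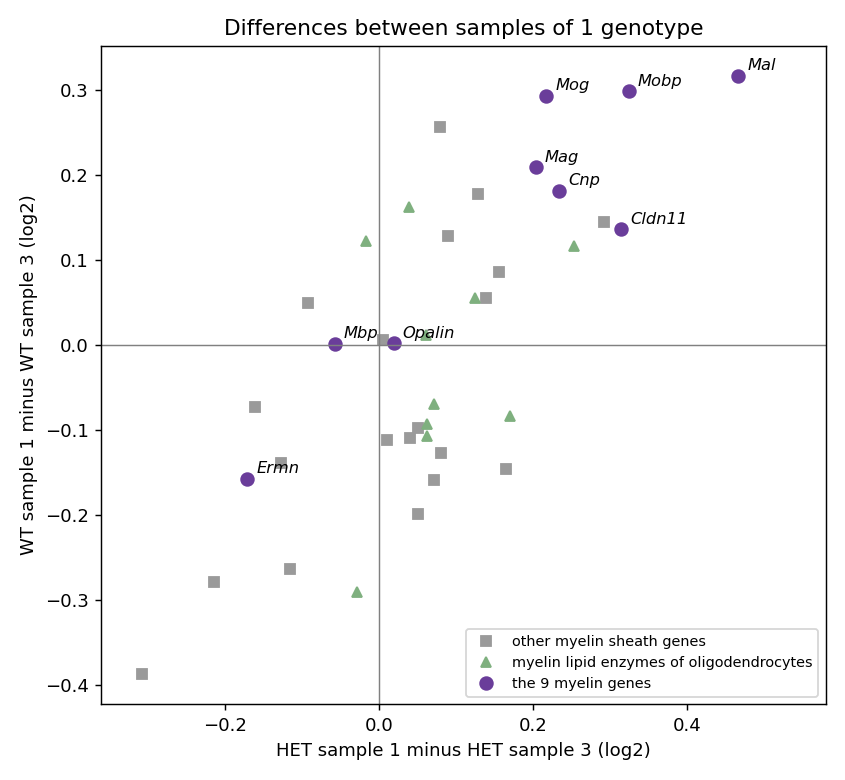
Log2 difference between HET samples 1 and 3 (x axis) and between WT samples 1 and 3 (y axis) for the 9 myelin genes (purple), other myelin sheath genes (grey) and myelin lipid enzymes (green). Mal, Mobp, Mog, Mag, Cnp and Cldn11 lie at the upper right and Ermn at the lower left; Ninj2, a low gene at 0.11 and -0.90, is outside the plot.

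The genes nearest to the mean profile of the 9 over the 6 samples were found by the root mean square difference in log2 units, among 13303 other genes with a mean of at least 50. Among the nearest were Homer3 at 0.04, Emilin2 and Gpn2 at 0.05 and Smco3 and Ugt8a at 0.06, of which Ugt8a encodes the enzyme that makes the galactolipids of myelin. Ugt8a was read at 1643, 1431 and 1378 normalized counts in HET samples and at 1547, 1848 and 1427 in WT samples. The median gene was at 0.20, and a gene with no variation would be at 0.17. Of the members, which make up that profile, Cnp was the nearest, at 0.03, and Ermn and Mal lay farthest, at 0.13 each. Of the other genes, 686 lay nearer than Ermn, 473 nearer than Mal and 81 nearer than Mbp. For the remaining members this number ran from 0 (Cnp) to 26 (Opalin).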

How the data were processed

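The deposited signal is a normalized count per gene, which the authors derived with tools that the submitters' processing notes name without their roles (Salmon 0.11.2, R 3.6.0, DESeq2 1.19.11; build GRCm38). Libraries were stranded and poly(A)-selected, per the labels' protocols. Steps were sought in the lowest values: within 0.1 reads, 77.6% to 84.5% of the lowest values were whole against 21.4% to 42.6% of those of 10 to 20 reads, so whole reads were not recovered and no count model was run, as the design foresaw for normalized values. Symbols matched 18122 of 18160 identifiers; positions are those of GENCODE M21.

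The log2 of each value, after adding 1, was modelled by limma-trend (limma 3.58.1, R 4.3.3) on genes with a mean of at least 10, with genotype as the only term, Benjamini-Hochberg adjustment over all 15151 genes and a threshold of 0.05. Fold changes on this scale understate changes of low genes. The procedure was tested on simulated data. The gene lists (17 with the members) were chosen with earlier results of these data known. Named besides the members were Cyfip2, the 2 genes of smallest p in each oligodendrocyte list and the 6 nearest in profile, except for genes not reported here; Slc17a7, Drd2, Pmp22 and Ninj2 were named after their values were seen. Of the listed genes 9 were not tested. A GC content was found for 99.8% of tested genes. Samples of a genotype differed by more than counting noise (mean chi-square per gene 9.36 to 26.2).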

Additional observations from a re-analysis of the deposited data

How the results depend on the processing

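None of the 9 genes passed under the main settings or any of 18 alternatives (adjusted p 0.39 to 1.00), and 148 of 162 values kept their direction. With the oligodendrocyte covariate 7 genes turned above WT: Mag 0.114, Mobp 0.0542, Cnp 0.0627, Cldn11 0.141, Mal 0.0451, Opalin 0.0230 and Ermn 0.0035; the 9-gene median was 0.05 and that of other sheath genes 0.06. Leaving out 1 sample gave ranges of -0.251 to 0.0893 for Mag, -0.259 to 0.0321 for Mobp, -0.211 to 0.0373 for Cnp, -0.163 to 0.112 for Cldn11 and -0.196 to 0.0387 for Mal; Cldn11 and Mal were above 0 without HET sample 3 as well. The 9-gene median ranged from -0.25 to 0.03 and that of other sheath genes from -0.15 to 0.03. Over all genes 2 passed; 1 passed without the trend, with a mean of at least 50, with the covariate, and with GC and length correction plus the block, and 1 to 4 with a sample left out. The cause was not tested.

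The labels do not say whether samples of the same number were paired, and the main fit did not pair them. The correlations of their deviations were 0.13, 0.12 and -0.01. Between HET and WT samples of different numbers the correlations ran from -0.16 to 0.05, so pairing was not settled. With the sample number as a replicate block, the member differences were as before (median -0.11), the smallest adjusted p was 0.40 and 2 genes passed. The lowest member averaged 478 normalized counts, against the filter of 10.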

Other observations

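Genes of the axonal cytoskeleton and node, the partners of the myelin sheath, did not share the height in WT sample 2. Of 10 tested (Nefl, Nefm, Nefh, Cntnap1, Cntn1, Ank3, Sptbn4, Scn8a, Kcna1 and Kcna2), none had its highest value there, and 9 were below WT, with a median log2 difference of -0.12 and of -0.14 without WT sample 2. None passed the threshold by limma-trend (smallest adjusted p = 0.34; 4 had an unadjusted p under 0.05), and 4 of the 10 did not overlap between genotypes, where 10.5% of all tested genes did not.

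Astrocyte and microglia markers had 2 of 10 and 3 of 10 genes below WT, with medians of 0.06 and 0.05 that were 0.12 and 0.11 without WT sample 2. The 5 tested Schwann cell genes had a median of 0.01; Pmp22 among them, which other cells express too, was at 828, 740 and 713 normalized counts in HET samples and 691, 1032 and 787 in WT samples.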
